A study of Mus musculus with 9 samples.

Results

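The genes described here are 32 members of the unfolded protein response and the integrated stress response in mouse liver. They were taken from a list of named genes: 3 sensors of the endoplasmic reticulum (ER), 3 transcription factors, 9 chaperones of the Hsp70 and Hsp90 systems with their partners, 5 lectin chaperones and disulfide isomerases, 8 genes of ER-associated degradation and 4 targets of the integrated stress response. The rule uses no measured value, but the members were chosen with earlier results of these data known. All 32 had reads, among 15493 genes with reads in the series, and 30 were abundant enough to be tested, among 10897 genes tested. Trib3 and Chac1 had too few reads.

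The series compared livers of C57BL/6 mice in 3 groups, with 3 RNA-seq libraries in each. The first group was wild type (WT), the second carried inducible YAP, the transcriptional co-activator restrained by the Hippo pathway (YAP), and the third carried inducible YAP together with a liver knockout of Lsd1, a histone demethylase encoded by Kdm1a (YAP_Lsd1ko). Mice of every group, WT included, had received AAV8-ApoE/ATT1-Cre by intraperitoneal injection. Doxycycline at 30 mg/L in the drinking water for 14 days, which induced YAP, is likewise given for the libraries of all 3 groups, WT included. The labels name no group with the Lsd1 knockout and no YAP, no promoter of the YAP transgene, no age and no sex. They do not say that the 3 libraries of a group came from separate mice, so p-values measure the spread between these libraries, which may be technical.

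Proteins that enter the secretory pathway fold in the ER, and the liver, which makes most plasma proteins, carries a heavy folding load. Membrane sensors read that load: IRE1 (Ern1) cuts a short intron out of Xbp1 mRNA so that the active factor XBP1s is made, PERK (Eif2ak3) phosphorylates eIF2alpha and so favours translation of ATF4, and ATF6 is cleaved into an active factor. XBP1s and ATF6 raise chaperones and degradation genes, while ATF4 and CHOP (Ddit3) raise amino acid and stress genes that other kinases of eIF2alpha can also reach.

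The sequence cut by IRE1 is shown because IRE1 splicing is read below at that intron. Promoter elements of the chaperones are shown because members with and without an element are set side by side below. The Xbp1 stretch lies in coding sequence at chr11:5524252-5524337 (GRCm38, plus strand), with the 26-base intron in capitals.
Xbp1: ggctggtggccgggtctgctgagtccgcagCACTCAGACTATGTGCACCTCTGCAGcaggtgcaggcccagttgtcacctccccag

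RefSeq promoters (GRCm38.p6, from 250 bases before to 50 bases after the start of the gene) were found for 28 of the 32 members, all but Atf6, Hyou1, Manf and Derl1. The ER stress response element, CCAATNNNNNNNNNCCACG searched on both strands, was present in 9 of these 28: Hspa5, Hsp90b1, Dnajc3, Creld2, Calr, Canx, Pdia6, Syvn1 and Derl3. Over all 32851 promoters 0.119% held it, in 37 of 27025 genes. The second ER stress response element, ATTGGNCCACG, was present in Dnajb11 and Herpud1 and in 0.0365% of all promoters. The UPR element TGACGTGG and the C/EBP-ATF element TGATGNAAT were in none of the 28 windows, beside 0.676% and 0.965% of all promoters. A match describes letters, not a site in use. The elements are printed for members whose RNA levels passed a test below, for Hspa5, whose promoter is the usual example of the class, and for Herpud1. Capitals mark the element, which reads CGTGG to ATTGG where it lies on the other strand.
Hspa5 (chr2:34772005-34772063): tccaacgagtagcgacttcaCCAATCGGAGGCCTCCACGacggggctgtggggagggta
Hsp90b1 (chr10:86705513-86705676, minus strand): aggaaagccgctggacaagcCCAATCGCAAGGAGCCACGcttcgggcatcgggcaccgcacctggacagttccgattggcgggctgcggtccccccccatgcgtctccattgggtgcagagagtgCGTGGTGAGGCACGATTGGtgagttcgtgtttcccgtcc
Dnajc3 (chr14:118937807-118937865): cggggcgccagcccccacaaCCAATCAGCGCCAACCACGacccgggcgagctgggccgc
Creld2 (chr15:88819500-88819558): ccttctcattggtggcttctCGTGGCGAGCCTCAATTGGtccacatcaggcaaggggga
Pdia6 (chr12:17266471-17266529): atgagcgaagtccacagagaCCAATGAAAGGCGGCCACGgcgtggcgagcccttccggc
Derl3 (chr10:75893222-75893280): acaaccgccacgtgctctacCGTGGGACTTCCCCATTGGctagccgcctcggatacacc
Herpud1 (chr8:94386357-94386407): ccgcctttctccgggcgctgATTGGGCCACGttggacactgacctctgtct

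Levels were measured as uniquely mapped reads over annotated splice junctions, summed per gene and given as counts scaled to library size with TMM factors (CPM). Libraries held 6516711 to 9267028 such reads. Kdm1a stood at 30.1, 38.3 and 31.3 CPM in the WT libraries, 36.7, 42.7 and 46.2 CPM in the YAP libraries, and 15.8, 35.4 and 25.3 CPM in the YAP_Lsd1ko libraries. The library labelled YAP_Lsd1ko replicate 2 thus lay within the WT range for the targeted gene. The labels do not say which exons were deleted, and the sum covers the junctions of the whole gene. Yap1 stood at 17.4 to 19.8 CPM in WT, 66.8 to 78.8 in YAP and 30.4 to 47.7 in YAP_Lsd1ko, so that the YAP and YAP_Lsd1ko libraries differed in Yap1 as well as in Kdm1a. Multi-mapped reads made up 32.2 to 68.6% of junction reads in WT, 13.1 to 14.4% in YAP and 24.5 to 59.5% in YAP_Lsd1ko. Among the cell type markers, the summed level of 12 macrophage and Kupffer cell genes was 576 to 1241 CPM in WT, 2622 to 3101 in YAP and 560 to 2627 in YAP_Lsd1ko, with 5 called higher in YAP. The summed level of 9 hepatocyte genes overlapped, at 173315 to 184670, 153462 to 223207 and 124862 to 176034 CPM, most of it Alb. The median log2 change of the 9 was -0.50 in YAP against WT, with 2 called lower (Ttr and Cyp2e1) and 1 higher (Trf), and 0.31 in YAP_Lsd1ko against YAP. The summed level of 7 neutrophil genes was 1.95 to 7.49 CPM in WT, 15.5 to 19.3 in YAP and 2.48 to 15.2 in YAP_Lsd1ko, with Ly6g at 0 and 2 of 3 tested genes called higher in YAP. That of 8 cholangiocyte genes was 54.8 to 109, 973 to 1154 and 158 to 622 CPM, and Spp1 was the 1 called, higher, of 6 tested in YAP. That of 7 pancreatic acinar genes was 13.9 to 18.9, 4.05 to 5.72 and 12.7 to 16.6 CPM, with Prss1, Cpa1, Cpb1 and Amy2a5 at 0, and most of it came from Cela1, which fell in YAP. In 9 stellate cell and fibroblast genes the sum was 890 to 1622, 525 to 1051 and 681 to 1033 CPM, in 9 T and NK cell genes 12.2 to 14.5, 10.1 to 25.7 and 5.62 to 20.7, and in 8 endothelial genes 1021 to 1043, 923 to 1096 and 934 to 970. In bulk tissue, fewer cells of a type and less RNA per cell cannot be told apart, and the part of cell mixture in the results below was not tested.

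Xbp1, 4 chaperones, 2 disulfide isomerases and 2 degradation genes fell in YAP livers, and 4 chaperones, 1 isomerase and 1 degradation gene were higher in YAP_Lsd1ko livers than in YAP livers. With edgeR, 9 of 30 tested members passed between YAP and WT and all 9 were lower: Xbp1, Hyou1, Hsp90b1, Dnajc3, Manf, Pdia4, Pdia6, Derl3 and Edem1. Over all genes tested, 10% were called lower and 7.44% higher. The fitted change was below 0 in 28 of 30 members, with a median of -0.42 on the log2 scale, against 0.00 over all genes. With library size alone in place of TMM factors 20 lay below 0 and 10 above, and the median of all genes was 0.31. In 20 members every YAP library lay below every WT library, which held for 22.8% of all genes tested. DESeq2 called 11 members lower, Calr and Sel1l besides these 9. Of all 10897 genes it called 2508, of which 1165 were higher. No member was called higher by edgeR or by DESeq2, and 1, Ppp1r15a, was higher at an unadjusted p under 0.05, beside 16% of all genes. At that threshold 14 were lower, beside 18.4%.

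Between YAP_Lsd1ko and YAP, 6 members passed and all 6 were higher: Hyou1, Dnajb9, Manf, Creld2, Pdia6 and Edem1. Over all genes tested 1.75% were called higher and 0.367% lower. The fitted change was above 0 in 27 of 30 members, with a median of 0.51, against -0.01 over all genes. Every YAP_Lsd1ko library lay above every YAP library in 18 members, beside 12.5% of all genes tested, and 17 were higher at an unadjusted p under 0.05, beside 11.7%. DESeq2 called 13 members higher, among them Hspa5, Dnajb11, Calr and Edem2, beside 531 of all 10897 genes. No member was called lower by edgeR or by DESeq2, and none was lower at an unadjusted p under 0.05, beside 6.89% of all genes. This comparison and the one with WT share the YAP libraries, so they are not independent of each other.

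**Figure D1:**
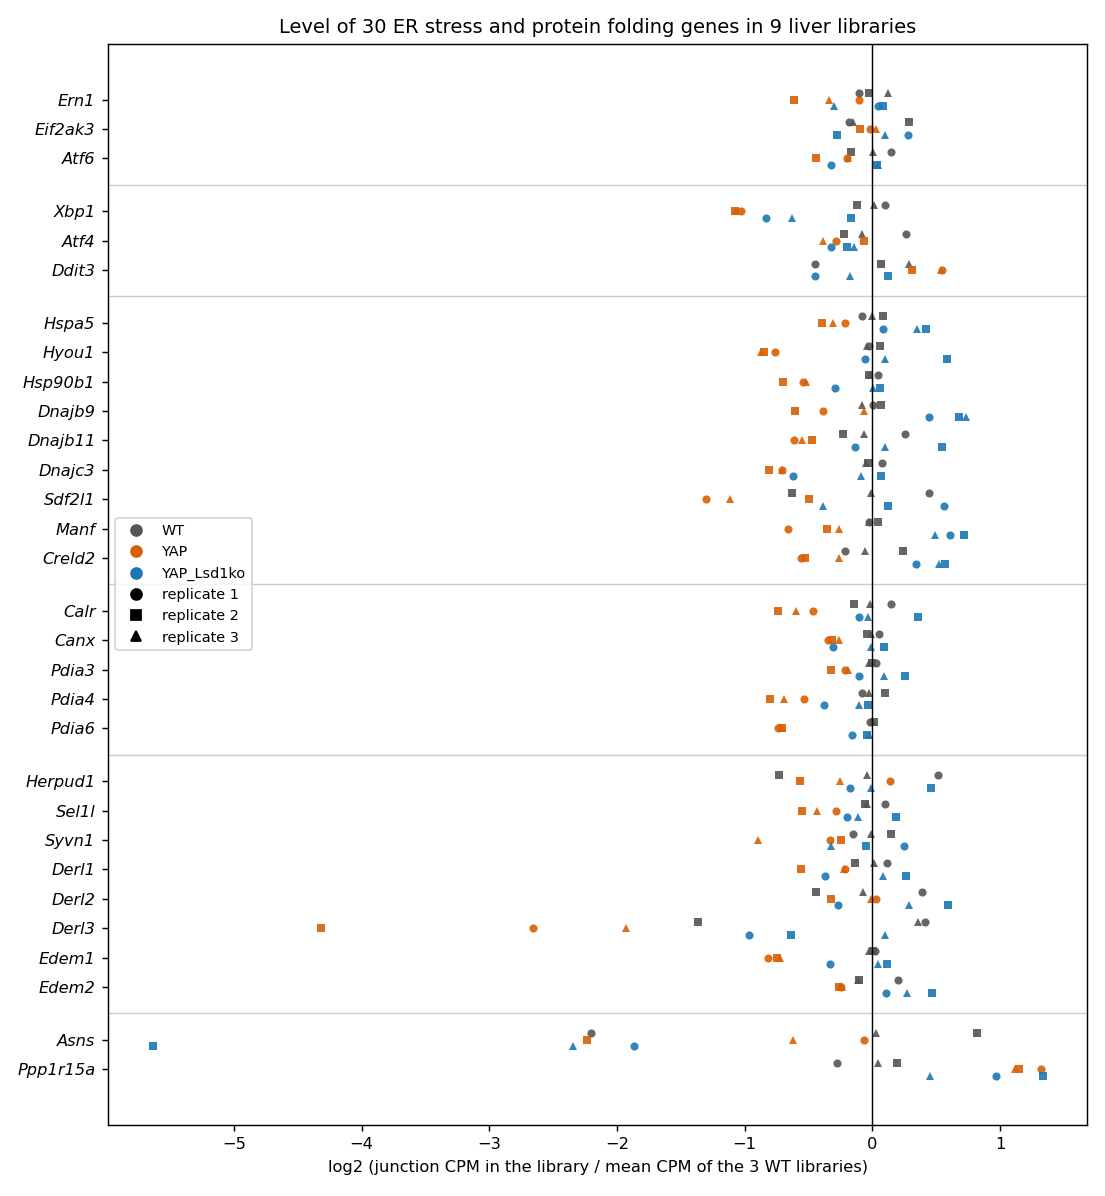
Level of each of the 30 tested members in each library, as log2 of its CPM over the mean CPM of the 3 WT libraries; each point is 1 library, colours are groups, shapes are replicate numbers and grey lines separate the roles. The YAP points of the chaperones and isomerases lie left of 0, in 12 of these 14 genes below every WT library, beside 22.8% of all genes tested. Those of Ddit3 and Ppp1r15a lie to the right.

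The counts of calls depended on single libraries. Between YAP and WT, the count of 9 lower members was 3 when either WT replicate 3 or YAP replicate 3 was left out, 4 when YAP replicate 2 was, and 5 when either WT replicate 1 or YAP replicate 1 was. Xbp1, Pdia6 and Edem1 passed whichever single library was left out. Between YAP_Lsd1ko and YAP, the count of 6 was 0 without YAP replicate 3, 1 without each of WT replicate 3, YAP replicate 1, YAP replicate 2 and YAP_Lsd1ko replicate 3, 3 without YAP_Lsd1ko replicate 2, and 13 without YAP_Lsd1ko replicate 1. Manf passed in 8 of those 9 fits. Without replicate 3 of every group no gene of the series passed in any comparison, although 9 and 8 members had an unadjusted p under 0.05 in these comparisons. With the library labelled YAP_Lsd1ko replicate 2 left out, the remaining YAP_Lsd1ko libraries lay above every YAP library in 19 members, beside 17.1% of all genes. Scaling by library size alone also turned the split of calls over all genes between YAP and WT, from 811 higher of 1901 calls to 1932 higher of 2545, and then 1 member was called higher (Ppp1r15a) and 6 lower. With either scaling 2 of the 30 members lay above the median of all genes.

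None of the sensors passed. Ern1 (chr11:106394650-106487852) stood at 41.3, 43.7 and 48.4 CPM in WT, against 41.4, 29.1 and 35.1 in YAP and 45.8, 47.0 and 36.1 in YAP_Lsd1ko. The groups overlapped, with a log2 fold change of -0.34 (SE 0.16, adjusted p = 0.164) in YAP against WT. Eif2ak3 (chr6:70844515-70905245) stood at 22.1, 30.6 and 22.6 CPM in WT, against 24.8, 23.5 and 25.5 in YAP and 30.4, 20.7 and 26.8 in YAP_Lsd1ko, and its changes of -0.03 (SE 0.18) and 0.08 (SE 0.18) did not exceed the spread between libraries. Atf6 (chr1:170704674-170867771) stood at 103, 82.2 and 92.7 CPM in WT, against 80.4, 68.0 and 81.0 in YAP and 74.0, 94.6 and 95.6 in YAP_Lsd1ko. Its YAP libraries lay below all WT libraries, by -0.27 (SE 0.14, adjusted p = 0.198), which did not pass. This held for all 3 sensors in all 3 comparisons with edgeR and with DESeq2, and none had an unadjusted p under 0.05.

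Xbp1 carried the largest change among the transcription factors. Xbp1 (chr11:5520659-5525893), the target of IRE1, stood at 143, 123 and 134 CPM in WT, against 65.1, 63.2 and 63.6 in YAP and 74.7, 119 and 86.0 in YAP_Lsd1ko. The 3 YAP libraries were close to each other and below all others, and the YAP_Lsd1ko libraries lay between the other groups without overlap. Xbp1 was 2.08-fold lower in YAP than in WT (log2 -1.06 with an SE of 0.16, adjusted p = 0.00367). The YAP_Lsd1ko libraries differed from YAP by 0.54 (SE 0.16, adjusted p = 0.133) and from WT by -0.52 (SE 0.16, adjusted p = 0.160) on the log2 scale, and neither passed in edgeR. Without YAP_Lsd1ko replicate 1 the first did, and without YAP_Lsd1ko replicate 2 the second did.

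The 26-base intron of Xbp1 (chr11:5524282-5524307) was read in every library. IRE1 cuts it without the spliceosome. The authors' tables mark it as annotated, with no canonical splice motif and no strand. Junctions were matched to GENCODE M21 by strand as well as position, so whether GENCODE M21 lists this intron was not tested. It was crossed by 56, 58 and 63 reads in the WT libraries, 32, 26 and 29 in the YAP libraries, and 89, 77 and 65 in YAP_Lsd1ko. The exact 95% Poisson intervals ran from 17.0 to 38.1 reads for the lowest library and from 71.5 to 110 for the highest, and cover counting error only. Each value was set against the mean of the 2 conventional Xbp1 junctions on either side, 43 and 77 bases away. The result was 17.1, 18 and 15.9% in the WT libraries, 15.3, 12 and 13.9% in the YAP libraries, and 35.4, 27.8 and 20.6% in YAP_Lsd1ko. It is an index of IRE1 splicing and not the spliced fraction, because reads on unspliced Xbp1 cross no junction there.

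The index did not overlap between any pair of groups. Its mean was 17.0 ± 1.03% in WT, 13.7 ± 1.67% in YAP and 27.9 ± 7.39% in YAP_Lsd1ko (SD, 3 libraries each). It was 2.04 times as high in YAP_Lsd1ko as in YAP, 1.64 times as high as in WT, and 0.807 times as high in YAP as in WT. Each exact two-sided permutation test gave p = 0.1, the smallest that 3 against 3 libraries allow. Leaving out single libraries kept the 3 ratios at 1.76 to 2.30, 1.42 to 1.86 and 0.761 to 0.859. The 26-base intron was also entered as a further Xbp1 junction in edgeR's test of junction usage, a step added after its reads were seen. Relative to Xbp1 as a whole its natural-log (not log2) changes were 0.63, 0.45 and -0.17, all with an adjusted p of 1. The unadjusted p in that test was 0.00164, 0.0151 and 0.383, and the adjustment ran over all junctions tested in the series. In absolute terms the 26-base intron stood at 8.77 ± 0.303 CPM in WT, 3.49 ± 0.453 in YAP and 10.1 ± 2.89 in YAP_Lsd1ko. Those levels overlapped between YAP_Lsd1ko and WT (exact permutation p = 0.6), while the conventional Xbp1 junctions of YAP_Lsd1ko lay below those of every WT library.

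**Figure D2:**
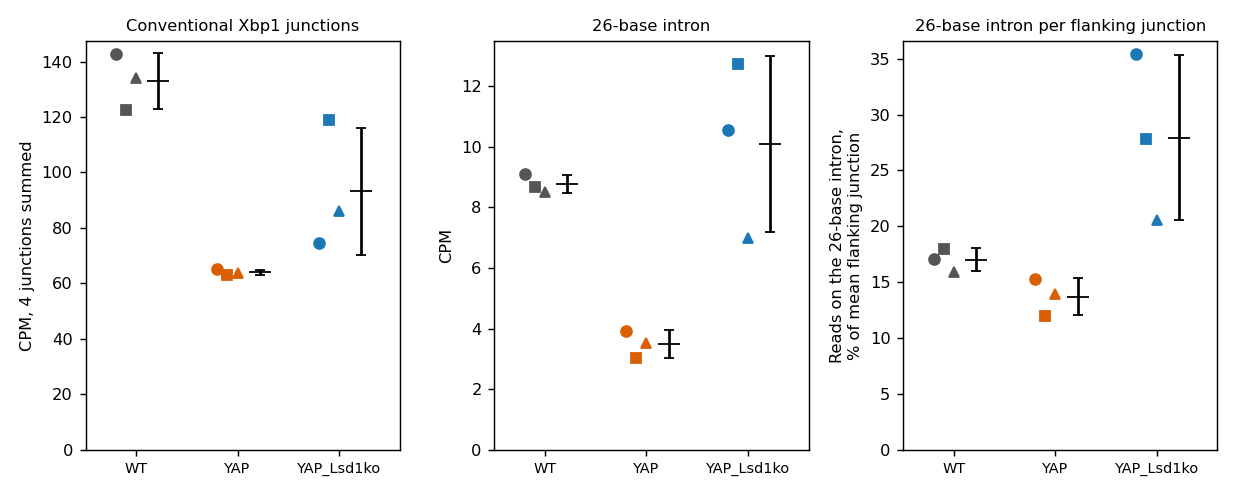
Xbp1 in each library: CPM over its 4 conventional junctions (left), CPM on the 26-base intron (middle) and reads on the 26-base intron as a percentage of the mean of the 2 flanking junctions (right); points are libraries, bars are the mean ± SD of 3 libraries. Xbp1 is highest in WT, with 123 to 143 CPM, while the percentage is highest in YAP_Lsd1ko, with 20.6 to 35.4%.

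Atf4 and Ddit3, the factors of the PERK branch, passed in no comparison. Atf4 (chr15:80255184-80257541), which acts mainly through its translation, stood at 21.1, 15.1 and 16.6 CPM in WT, against 14.5, 16.9 and 13.5 in YAP and 14.1, 15.4 and 15.9 in YAP_Lsd1ko. The groups overlapped, and its log2 changes were -0.24 (SE 0.16) in YAP against WT and 0.02 (SE 0.16) in YAP_Lsd1ko against YAP. Ddit3 (chr10:127290774-127296288), encoding the pro-apoptotic factor CHOP, stood at 1.79, 2.55 and 2.97 CPM in WT, against 3.56, 3.02 and 3.53 in YAP and 1.78, 2.65 and 2.15 in YAP_Lsd1ko, from 11 to 29 reads per library. Its YAP libraries lay above all others, opposite to the chaperones. The changes of 0.46 (SE 0.28, adjusted p = 0.284) and -0.63 (SE 0.28, adjusted p = 0.276) did not pass.

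The Hsp70 and Hsp90 chaperones and their partners held the most calls, with 4 of 9 lower in YAP than in WT and 4 of 9 higher in YAP_Lsd1ko than in YAP. Over all genes tested 10 and 1.75% were so called. All 9 had every YAP_Lsd1ko library above every YAP library, and all 9 were higher at an unadjusted p under 0.05 in that comparison, beside 12.5 and 11.7% of all genes tested. Hyou1 (chr9:44379490-44392369), an Hsp70-like chaperone that exchanges nucleotide on BiP, stood at 266, 283 and 263 CPM in WT, against 160, 151 and 148 in YAP and 259, 405 and 290 in YAP_Lsd1ko. It fell 1.77-fold in YAP (log2 -0.83, SE 0.17, adjusted p = 0.0123) and was 2.08-fold higher in YAP_Lsd1ko than in YAP (log2 1.06, SE 0.17, adjusted p = 0.0190). The first call was lost in 2 and the second in 5 of the 9 fits that left out a library. Its YAP_Lsd1ko and WT libraries overlapped.

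Manf (chr9:106838312-106891979), a secreted ER stress factor that binds BiP, was the member called in all 3 comparisons. It stood at 47.1, 49.4 and 47.1 CPM in WT, against 30.3, 37.3 and 39.9 in YAP and 73.2, 78.7 and 67.1 in YAP_Lsd1ko. No 2 groups overlapped, and YAP_Lsd1ko was above both others. The log2 changes were -0.42 in YAP against WT (SE 0.12, adjusted p = 0.0471), 1.02 in YAP_Lsd1ko against YAP (SE 0.12, adjusted p = 0.00795) and 0.61 in YAP_Lsd1ko against WT (SE 0.12, adjusted p = 0.0428). The first was lost in 7 of the 9 fits that left out a library, and with library size alone it was -0.11 (adjusted p = 0.633). The second was lost in 1 of the 9, and the last passed in 1 of the 9, that without YAP replicate 1.

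Dnajb9 and Creld2 passed between YAP_Lsd1ko and YAP. Dnajb9 (chr12:44205559-44210326), an Hsp40 co-chaperone of BiP that is an IRE1 and XBP1 target, stood at 15.4, 16.2 and 14.6 CPM in WT, against 11.8, 10.1 and 14.7 in YAP and 20.99, 24.6 and 25.6 in YAP_Lsd1ko. It was 1.95-fold higher in YAP_Lsd1ko than in YAP (log2 0.96, SE 0.16, adjusted p = 0.0222), and its YAP and WT libraries overlapped. Creld2 (chr15:88819646-88826683), a disulfide isomerase-like ER protein, stood at 30.4, 41.6 and 34.0 CPM in WT, against 23.9, 24.5 and 29.6 in YAP and 44.7, 52.4 and 50.8 in YAP_Lsd1ko. It was 1.90-fold higher in YAP_Lsd1ko than in YAP (log2 0.92, SE 0.15, adjusted p = 0.0186). Of the 9 fits that left out a library, 6 lost the call of Dnajb9 and 5 that of Creld2. Both lay above every WT library in YAP_Lsd1ko, with adjusted p of 0.0957 and 0.150.

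Hsp90b1 and Dnajc3 passed between YAP and WT. Hsp90b1 (chr10:86690209-86705509), the ER form of Hsp90, stood at 1748, 1666 and 1669 CPM in WT, against 1163, 1042 and 1180 in YAP and 1383, 1770 and 1695 in YAP_Lsd1ko. It fell 1.502-fold in YAP (log2 -0.59, SE 0.17, adjusted p = 0.0426), a call lost in 7 of the 9 fits that left out a library and, at -0.28 (adjusted p = 0.132), with library size alone. It was 0.52 above YAP in YAP_Lsd1ko (SE 0.17, adjusted p = 0.159). Dnajc3 (chr14:118937976-118981697), a co-chaperone that also inhibits eIF2alpha kinases, stood at 389, 360 and 356 CPM in WT, against 226, 210 and 226 in YAP and 240, 387 and 347 in YAP_Lsd1ko. It fell 1.67-fold in YAP (log2 -0.74, SE 0.18, adjusted p = 0.0221), a call lost in 5 of the 9.

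Hspa5, which encodes BiP, the Hsp70 of the ER and the usual gauge of ER stress, did not pass in any comparison with edgeR on all libraries. It stood at 695, 778 and 734 CPM in WT, against 635, 560 and 593 in YAP and 780, 985 and 935 in YAP_Lsd1ko, with no overlap between any pair of groups. Its log2 changes were -0.30 (SE 0.16, adjusted p = 0.200), 0.59 (SE 0.16, adjusted p = 0.0968) and 0.29 (SE 0.16, adjusted p = 0.435) in the order YAP against WT, YAP_Lsd1ko against YAP and YAP_Lsd1ko against WT. Dnajb11, an Hsp40 partner of BiP, had changes of -0.54 and 0.74 (adjusted p = 0.0740 and 0.0875) in the first and second of these. Sdf2l1, a BiP cofactor read at 13 to 49 reads per library, had changes of -0.92 and 1.07 (adjusted p = 0.126 and 0.188). DESeq2 called Hspa5 and Dnajb11 higher in YAP_Lsd1ko than in YAP, and so did edgeR without YAP_Lsd1ko replicate 1.

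All 5 lectin chaperones and disulfide isomerases had every YAP library below every WT library, and 2 passed with edgeR. Over all genes tested these shares were 22.8 and 10%. Pdia6 (chr12:17266545-17284770), a disulfide isomerase that attenuates IRE1 signalling, stood at 669, 684 and 681 CPM in WT, against 406, 414 and 416 in YAP and 608, 660 and 665 in YAP_Lsd1ko. It fell 1.65-fold in YAP (log2 -0.72, SE 0.13, adjusted p = 0.00710) and was 1.56-fold higher in YAP_Lsd1ko than in YAP (log2 0.65, SE 0.13, adjusted p = 0.0442). The second call was lost in 8 of the 9 fits that left out a library and with library size alone, without a filter, with 2 groups only and with the replicate block (adjusted p = 0.165). Pdia4 (chr6:47796141-47813430), another isomerase, stood at 327, 370 and 340 CPM in WT, against 239, 198 and 214 in YAP and 266, 337 and 321 in YAP_Lsd1ko. It fell 1.59-fold in YAP (log2 -0.67, SE 0.14, adjusted p = 0.0143), a call lost in 3 of the 9 and with library size alone. Calreticulin (Calr), a lectin chaperone of glycoproteins, missed the threshold at -0.60 (SE 0.18, adjusted p = 0.0501) in YAP and stood 0.68 above YAP in YAP_Lsd1ko (adjusted p = 0.0971). DESeq2 called Calr lower in YAP than in WT and higher in YAP_Lsd1ko than in YAP. Calnexin (Canx) and Pdia3, their partner isomerase, had smaller changes of -0.31 and -0.24 in YAP.

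Of the 8 genes of ER-associated degradation, 2 fell in YAP and 1 was higher in YAP_Lsd1ko than in YAP, beside 10 and 1.75% of all genes tested. Edem1 (chr6:108828641-108859356), which hands misfolded glycoproteins to degradation, stood at 232, 229 and 225 CPM in WT, against 130, 136 and 139 in YAP and 182, 247 and 236 in YAP_Lsd1ko. It fell 1.70-fold in YAP (log2 -0.76, SE 0.14, adjusted p = 0.00644) and was 1.64-fold higher in YAP_Lsd1ko than in YAP (log2 0.72, SE 0.14, adjusted p = 0.0350), the second of which was lost in 7 of the 9 fits that left out a library. Derl3 (chr10:75893413-75895941), a derlin of the retrotranslocation channel, was read at 19, 6 and 22 reads in the WT libraries, 3, 1 and 5 in the YAP libraries, and 10, 9 and 23 in YAP_Lsd1ko. Its change of -2.63 in YAP (log2, with an SE of 0.66 and an adjusted p = 0.0261) is a value that rests on 1 to 5 reads per YAP library, and it lost the call in 5 of the 9 fits that left out a library. Derl3 is abundant in plasma cells, and the summed level of 12 plasma and B cell markers was 3.90 to 10.9 CPM in WT, 9.12 to 10.3 in YAP and 5.29 to 16.8 in YAP_Lsd1ko. Edem2, a relative of Edem1, was 0.54 above YAP in YAP_Lsd1ko (adjusted p = 0.0732 with edgeR), a change that DESeq2 called.

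The ubiquitin ligase genes Syvn1 (Hrd1) and Sel1l, its partner, and the derlin Derl1 had changes of -0.46, -0.42 and -0.32 in YAP with no overlap between libraries. None passed with edgeR, while DESeq2 called Sel1l lower. Herpud1, which assembles the Hrd1 complex, spread more within groups than between them, at 343, 145 and 234 CPM in WT, against 265, 163 and 202 in YAP and 213, 331 and 239 in YAP_Lsd1ko. Derl2 likewise overlapped between groups, with 57.2 to 102 CPM in WT and 62.1 to 79.2 in YAP.

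The targets of the integrated stress response were low, and none passed. Ppp1r15a (GADD34), the phosphatase subunit that reverses eIF2alpha phosphorylation, was read at 4, 6 and 6 reads in the WT libraries, 16, 15 and 14 in the YAP libraries, and 13, 12 and 10 in YAP_Lsd1ko. Every YAP and every YAP_Lsd1ko library lay above every WT library, and the log2 change of 1.18 in YAP against WT (SE 0.37, adjusted p = 0.0555) missed the threshold. Asns, asparagine synthetase, ranged from 1.79 to 14.5 CPM in WT, 1.74 to 7.86 in YAP and 0.165 to 2.25 in YAP_Lsd1ko, with overlap in every comparison. Trib3, a pseudokinase that feeds back on ATF4, had 2 to 9 reads in WT, 6 to 9 in YAP and 2 in each YAP_Lsd1ko library. Chac1, which degrades glutathione, had 2 to 8, 5 to 16 and 3 to 15 reads.

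**Figure D3:**
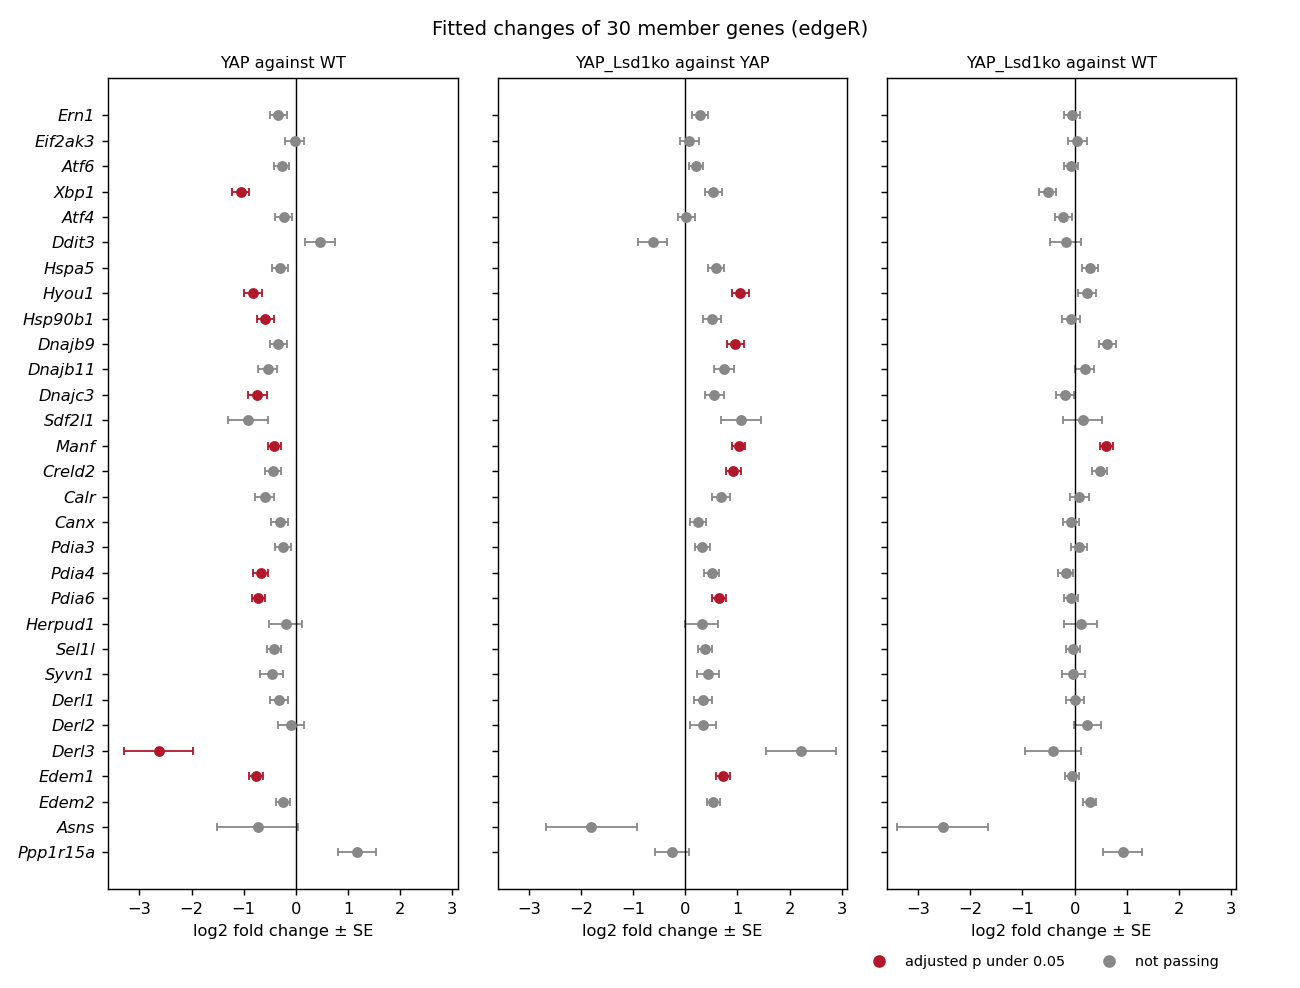
Fitted log2 fold change ± SE, scaled with TMM factors, of the 30 tested members in the 3 comparisons, in the order of their roles, with members that passed (adjusted p under 0.05, edgeR) in red. In the left panel 28 points lie below 0 and 9 pass; in the middle panel 27 lie above 0 and 6 pass; in the right panel 15 lie on either side and only Manf passes.

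Between YAP_Lsd1ko and WT the members lay on either side of 0. Manf was the only member that passed, beside 2.05% of all genes called, 1.12% higher and 0.927% lower, and 15 members lay above 0 and 15 below, with a median of -0.01. With library size alone 23 lay above 0, beside a median of all genes of 0.17, and 208 of 273 calls over all genes were higher, against 122 of 223 with TMM factors. Every YAP_Lsd1ko library lay above every WT library in 5 members (Hspa5, Dnajb9, Manf, Creld2 and Ppp1r15a), beside 7.68% of all genes, and below in 2 (Xbp1 and Pdia6), beside 9.91%. No member was called lower by edgeR or DESeq2, and 2, Xbp1 and Asns, were lower at an unadjusted p under 0.05, beside 7.80% of all genes, while 5 were higher, beside 7.42%. The count of 1 was 0 in 8 of the 9 fits that left out 1 library, all but that without YAP replicate 1. The fit without YAP_Lsd1ko replicate 2 called Xbp1 lower. The YAP_Lsd1ko libraries differed among themselves: the median of the 30 members, relative to their mean over 9 libraries, was -0.03, 0.37 and 0.17 for replicates 1, 2 and 3, against -0.43 to -0.23 in YAP and 0.07 to 0.21 in WT. The highest of these was the library labelled YAP_Lsd1ko replicate 2, and the lowest was replicate 1, which had the lowest Kdm1a and the highest Xbp1 index.

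Members with and without a promoter element were compared by their calls, as a description. Of the 11 such members, 4 (Derl3, Dnajc3, Hsp90b1 and Pdia6) were lower in YAP than in WT, and of the 15 tested members with a promoter and neither element 3 were (Edem1, Pdia4 and Xbp1). Over genes that are no members 2 of 14 with either element were lower (Acacb and Rcl1), and 9.93% of 8643 with a promoter and neither element. The medians over members were -0.54 and -0.34. In YAP_Lsd1ko against YAP, 2 of 11 (Creld2 and Pdia6) and 2 of 15 (Dnajb9 and Edem1) were higher, with medians of 0.59 and 0.34, beside 1 of 14 (Acacb) and 1.59% of 8643 genes that are no members. Over the 14 tested genes that are no members and hold either element, the medians were -0.07 and 0.29.

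Levels were compared between members per junction, as the median CPM over the introns of the main transcript in each library. They are given as the mean ± SD of the 3 libraries of a group. In WT this was highest for Calr at 108 ± 10.4, Hspa5 at 107 ± 8.84 and Hsp90b1 at 99.6 ± 3.26, which did not differ beyond their spread. Canx (66.9 ± 2.90), Pdia6 (58.2 ± 2.49) and Pdia3 (57.5 ± 1.64) came next. The sensors were far lower, with Atf6 at 6.09 ± 1.15, Ern1 at 2.12 ± 0.0336 and Eif2ak3 at 1.53 ± 0.251. In YAP_Lsd1ko Hspa5 stood first, at 134 ± 14.9, beside 116 ± 18.9 for Calr.

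Junction usage within members did not change detectably. All 32 members could be tested, over 295 junctions, and none passed in any comparison (edgeR, Simes p per gene), beside 0.0725, 0.0181 and 0.0363% of all genes. No member had an unadjusted gene p under 0.05, and 3, 0 and 3 of the 295 junctions did.

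Other genes of the same pathways, 132 on lists outside the members of which 122 were tested, had more lower than higher calls in YAP. Between YAP and WT 20 passed as lower and 3 as higher, with a median of -0.16 beside 0.00 over all genes; with library size alone 7 passed as lower and 11 as higher. The counts of single lists stand beside 10% of all genes called lower and 7.44% called higher. In folding and disulfide formation 5 of 25 fell and 1 rose: Ero1lb, an oxidase of the isomerases, fell on the log2 scale (-0.91, adjusted p = 0.00631), Ppib, a prolyl isomerase, likewise (-0.66, adjusted p = 0.0114), and Fkbp11, another prolyl isomerase, rose by 0.86 (adjusted p = 0.0292). In degradation 6 of 20 fell, among them Nploc4 (-0.68, adjusted p = 0.00472) and Vcp (-0.57, adjusted p = 0.0136), parts of the ATPase complex that pulls proteins from the membrane, and the ligase March6 (-0.87, adjusted p = 0.0172). In translocation and N-glycosylation 3 of 22 fell, a share near that over all genes: Ssr4 (-0.59), Ostc (-0.50) and Ssr3 (-0.52), which serve at the translocon. Of 16 genes of ER stress signalling 2 fell, likewise near that share: Creb3l3 (-1.28, adjusted p = 0.00190), an ER-bound liver transcription factor, and Sec24d (-0.75, adjusted p = 0.00831), a coat protein of ER exit.

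The genes of the eIF2alpha arm were called about as often as all genes, of which 10% were lower and 7.44% higher. Of 12 genes for its kinases and translation control 1 fell, Eif2b4 (-0.58, adjusted p = 0.00914), a subunit of the exchange factor. Of 27 targets of ATF4 and CHOP, 3 fell and 2 rose: Aars (-1.04, adjusted p = 0.00224), Cth (-1.47, adjusted p = 0.00284) and Shmt2 (-1.21, adjusted p = 0.0186) fell, and Gpt2 rose by 0.78 (adjusted p = 0.0333), along with Stc2, which had no read in WT. The median of these 27 was 0.29, of opposite sign to the chaperone lists. Between YAP_Lsd1ko and YAP 2 of the 122 passed with edgeR, Ero1lb (log2 1.33, adjusted p = 0.00814) and Sec24d (0.79, adjusted p = 0.0262), both higher. That share is near the 1.75% of all genes called higher. The median was 0.19, beside -0.01 over all genes, with 85 changes above 0 and 37 below. At an unadjusted p under 0.05, 31 were higher and 3 lower, beside 11.7 and 6.89% of all genes. DESeq2 called 16 higher, beside 531 of all 10897 genes, and 1 lower. Between YAP_Lsd1ko and WT none passed with edgeR, while 8 were higher and 9 lower at an unadjusted p under 0.05, beside 7.42 and 7.80% of all genes, and DESeq2 called 2 and 4. Without single libraries the 20 lower genes became 6 (without WT replicate 3) to 26 (without YAP_Lsd1ko replicate 1), with 13, 11, 9 and 8 without WT replicate 1 and YAP replicates 1, 2 and 3. The 2 higher genes became 19 without YAP_Lsd1ko replicate 1, 0 without YAP replicate 3, and 1 without WT replicate 3, YAP replicate 1, YAP replicate 2 or YAP_Lsd1ko replicate 3. The 3 higher genes in YAP became 1 without WT replicate 3, YAP replicate 1 or YAP replicate 3, and 5 or 6 without YAP_Lsd1ko replicate 1 or 2.

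**Figure D4:**
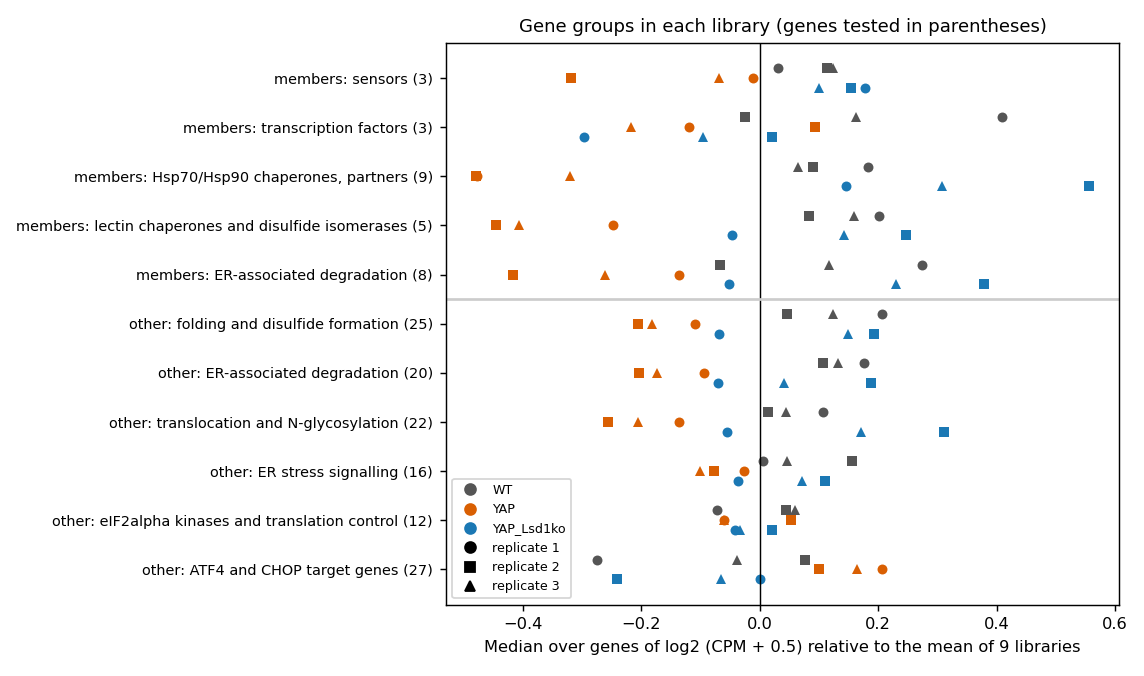
Median over the genes of each list of log2(CPM + 0.5) relative to the gene's mean over 9 libraries; each point is 1 library, with member roles above the grey line and other lists below it. The YAP libraries are the lowest of all in the chaperone, isomerase and ER-associated degradation rows, and the highest in the row of ATF4 and CHOP targets.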

How the data were processed

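RNA was sequenced in 9 mouse liver libraries (3 groups of 3) after depletion of ribosomal RNA, with stranded kits and an RNA integrity number of 8 or higher, per the labels' protocols. Per the submitters' processing notes, the tools were STAR, featureCounts, edgeR, bcl2fastq and FastQC (no versions) on the build mm10 (GRCm38). For STAR's annotation the sources used here give no name. The deposited values are counts of reads per splice junction, not normalized. Unique reads over annotated junctions matching introns of exactly 1 gene of GENCODE M21 were summed per gene. A read crossing several junctions counts at each.

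The gene test was that of edgeR 4.0.16 (under R 4.3.3, with filterByExpr, TMM, robust quasi-likelihood, Benjamini-Hochberg over 10897 genes, threshold 0.05) in 1 fit of 9 libraries. The SE is the absolute log2 change divided by the root of F. Comparisons were YAP against WT, YAP_Lsd1ko against YAP and YAP_Lsd1ko against WT. Junction usage was tested with diffSpliceDGE on junctions of at least 10 reads, and the Xbp1 index by exact permutation. Alternatives were other scalings, filters, groups, replicate blocks, left-out libraries, multi-mapped reads, non-robust dispersions and DESeq2 1.42.0. The procedure was tested on simulated data. Further steps used Python 3.11.15 (pandas 2.3.3, numpy 2.4.6; plots with matplotlib 3.10.9).

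The members and the gene lists were chosen with earlier results of these data known. Values are given for members that passed in any comparison, for all sensors and transcription factors, and for up to 3 passing genes with the smallest p per other list; other members are summarised, and those named with values beyond this were chosen after their values were seen.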

Additional observations from a re-analysis of the deposited data

How the results depend on the processing

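The changes of the members that passed, and those of Xbp1 in the 3 comparisons, kept their direction in every alternative that could be fitted, and the Xbp1 index in all 7 of its own. This does not hold for members that did not pass: with library size alone 10 of 30 members lay above 0 in YAP against WT, where 2 did with TMM factors. Counts of calls did not hold. The cause was not tested. For members, lower in YAP than in WT (9) became 5 with a replicate block, 0 without replicate 3 of every group and 3 to 12 with 1 library left out; higher (0) became 1 with library size alone, with 2 groups only and with multi-mapped reads, and 0 to 1 with 1 library left out. Higher in YAP_Lsd1ko than in YAP (6) became 2 with library size alone and with 2 groups only, 1 with the replicate block, 13 with DESeq2, 0 without replicate 3 of every group, and 0 to 13 with 1 library left out. Higher in YAP_Lsd1ko than in WT (1) became 3 with library size alone, 2 with DESeq2, 0 without a filter, with 2 groups only, with the replicate block, with multi-mapped reads or without replicate 3 of every group, and 0 to 1 with 1 library left out; lower (0) ranged over 0 to 1.

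For the other pathway genes, higher in YAP than in WT (3) became 11 with library size alone, 6 with 2 groups only or DESeq2, 1 with the replicate block, 0 without replicate 3 of every group and 1 to 6 with 1 library left out. Lower (20) became 7 with library size alone, 11 with the replicate block, 0 without replicate 3 of every group and 6 to 26 with 1 library left out. In YAP_Lsd1ko against YAP, higher (2) became 1 with library size alone, 2 groups only or the replicate block, 16 with DESeq2, 0 without replicate 3 of every group and 0 to 19 with 1 library left out; lower (0) became 1 without a filter or with DESeq2. In YAP_Lsd1ko against WT, higher (0) became 2 with library size alone or DESeq2 and 0 to 2 with 1 library left out; lower (0) became 1 with library size alone, 4 with DESeq2 and 0 to 4 with 1 library left out.

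Whether the replicate numbers pair the libraries cannot be decided here, because deviations from a mean of 3 libraries are tied to each other. Correlations of these deviations ran from -0.656 to 0.341 between libraries of the same number. Between libraries of different numbers they ran from -0.322 to 0.681. Depth limits Derl3, Ddit3, Sdf2l1 and the targets of the integrated stress response, which had under 100 reads per library.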
